A study of Mus musculus with 8 samples.

Results

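Genes of the pigment cell were examined in whole hearts of 8 mice, 4 female and 4 male. Dct, which encodes dopachrome tautomerase, was chosen by its normalized read counts in these hearts, which differ between the sexes, and 7 further pigment cell genes were added to see whether they vary with it from heart to heart. They are Tyr, Tyrp1, Pmel, Mlana, Mitf, Kit and Ednrb. Of these 8 genes, 7 had a row among the 17911 genes of the deposited table. Tyr had no row, so its level is not analysed here. All mice were wild-type C57Bl6/J, untreated as far as the labels say, and were described as adults of 4 weeks in the design text and of 4 to 6 weeks in the protocol. RNA came from single hearts that were homogenized in Trizol, and all hearts carried the same batch label. The protocol describes a small RNA kit, while the molecule is labelled total RNA. Female replicates were numbered 1 to 4, and male replicates 1, 3, 4 and 5.

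Melanocytes are neural crest cells that make melanin inside melanosomes, which are organelles related to lysosomes. Tyrosinase, the product of Tyr, catalyses the first step of melanin synthesis, and the related proteins Tyrp1 and Dct act on later intermediates. Pmel forms the fibrils of the melanosome, Mlana is a membrane protein of early melanosomes, and Mitf is the transcription factor that drives the pigment genes. Kit and Ednrb are the receptors for Kit ligand and for endothelins, on which melanocyte precursors depend. In mice, Dct-expressing melanocyte-like cells are known from the heart, mainly from the atria, the valves and the base of the pulmonary veins. Kit also marks mast cells, Ednrb is also made by endothelial cells, and Mitf is transcribed from several promoters outside the melanocyte.

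The start regions of the 3 enzyme genes are shown because all contain the M-box core that Mitf is known to bind in pigment genes. Windows of 250 bases before to 50 bases after the annotated start were available for 6 of the 8 genes from RefSeq (GRCm38.p6, the assembly that mm10 also names). Sequences run 5′ to 3′ on the strand of the gene, and capitals mark CATGTG or its reverse complement CACATG.
Dct, chr14:118052197-118052496, minus strand: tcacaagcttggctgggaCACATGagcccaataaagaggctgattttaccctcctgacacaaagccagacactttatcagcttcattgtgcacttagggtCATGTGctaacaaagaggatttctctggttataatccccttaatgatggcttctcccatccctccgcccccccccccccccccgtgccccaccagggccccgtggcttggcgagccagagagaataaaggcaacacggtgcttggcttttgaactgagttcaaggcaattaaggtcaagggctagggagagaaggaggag
Tyrp1, chr4:80833963-80834262, plus strand: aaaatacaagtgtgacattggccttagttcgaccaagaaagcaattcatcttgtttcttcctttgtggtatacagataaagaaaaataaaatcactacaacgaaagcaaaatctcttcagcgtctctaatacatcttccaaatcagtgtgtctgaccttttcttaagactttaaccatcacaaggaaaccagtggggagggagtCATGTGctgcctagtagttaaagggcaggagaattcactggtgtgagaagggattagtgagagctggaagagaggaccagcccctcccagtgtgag
Tyr, chr7:87493463-87493762, minus strand: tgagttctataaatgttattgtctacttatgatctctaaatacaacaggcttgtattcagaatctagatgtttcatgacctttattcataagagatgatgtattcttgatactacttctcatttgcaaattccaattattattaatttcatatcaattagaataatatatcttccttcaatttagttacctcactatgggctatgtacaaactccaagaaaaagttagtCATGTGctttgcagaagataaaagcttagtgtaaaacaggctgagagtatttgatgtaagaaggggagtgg
The longer word TCATGTGCT was present in all 3 windows on the strand of the gene. It began 151 bases before the RefSeq start in Dct, 47 bases before that start in Tyrp1 and 22 bases before it in Tyr. Gene positions given below come from GENCODE, where Tyrp1 begins earlier, at 80834123, so the match lies inside that gene span. Ednrb also begins earlier there, at 103844402 on the minus strand, outside its RefSeq window. Searched on both strands, TCATGTGCT occurred in 0.41% of 32851 such windows and the shorter CATGTG, which it contains, in 14.15%. Dct held a further CATGTG match on the opposite strand at 232 bases before the start. The windows of Mitf, Kit and Ednrb held no match to CATGTG or to CACGTG, a related E-box found in 7.15% of windows. A match describes these letters only and is no measure of binding.

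Values are read counts scaled by the authors with a size factor for each heart, and are called normalized read counts here. Assigned reads ran from 51.7 M in female replicate 4 to 75.7 M in male replicate 4, and male replicate 5 held 55.0 M. Male replicate 3 stood apart in Scgb1a1, a gene of airway secretory cells, with 1268 normalized read counts against 1.22 to 46.5 in the other hearts. The labels do not say whether hearts shared a litter or a day, so p-values measure the spread between these 8 hearts.

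Dct, on chromosome 14 (118012790 to 118052244, minus strand, mm10), was higher in female hearts. Its normalized read counts were 317, 382, 298 and 333 in female replicates 1 to 4, against 255, 244, 226 and 188 in male replicates 1, 3, 4 and 5. Every female heart was above every male heart, and the nearest hearts were female replicate 3 and male replicate 1. Female hearts averaged 332 ± 35.9 and male hearts 228 ± 29.4 (SD, n = 4 each), a ratio of 1.46. The log2 difference was 0.54 (SE 0.11). These values chose the gene, so they are given as a description with no test. Between 156 and 394 reads stood behind the value of a heart. Leaving out any heart gave log2 differences between 0.45 and 0.60, the smallest of them without male replicate 5, the male heart with the lowest Dct. In whole-heart RNA, more cells that express Dct and more Dct RNA per cell cannot be told apart.

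The measured genes on either side of Dct did not pass the test. Gpc6, a heparan sulfate proteoglycan gene that ends 36.3 kb from Dct on the opposite strand, averaged 1123 ± 79.7 normalized read counts in female hearts and 1046 ± 36.8 in male hearts (SD, n = 4 each; log2 difference 0.10, limma adjusted p = 0.405). The nearest measured gene on the other side, the predicted gene Gm26773 at 55.6 kb, averaged 69.2 ± 7.96 in female hearts and 78.1 ± 9.97 in male hearts (log2 difference -0.17, limma adjusted p = 0.613). An antisense gene with no row, 4930435M08Rik, overlaps Dct. Whether counting used strand is not given in the sources used here, so reads of that gene and of Dct cannot be told apart.

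None of the other 6 pigment cell genes passed the test between the sexes. Across all genes 1.16% were called by limma at an adjusted p under 0.05 (0.475% higher and 0.687% lower in females), and 9.35% had no overlap between the sexes (4.52% higher and 4.82% lower in females). The count among the 6 was 0 by limma and by edgeR, and 0 of the 4 to which DESeq2 gave an adjusted p. At an unadjusted p under 0.05 it was 1 with each tool, and that gene was Tyrp1 in limma; 1 of 6 is 16.7%, beside 2867 of all 17911 genes, or 16%. All 6 had overlapping values in female and male hearts.

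**Figure D1:**
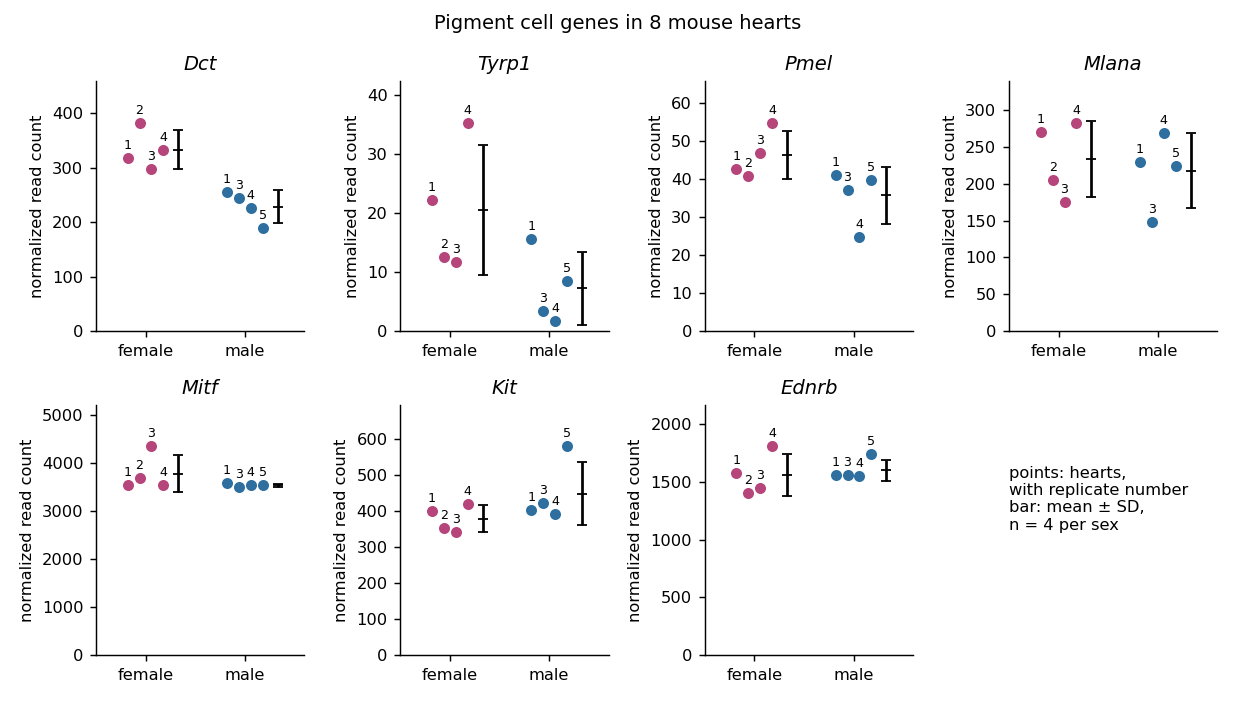
Normalized read counts of the 7 measured pigment cell genes (vertical axes, each from 0) in female and male hearts (horizontal axis); points are hearts marked with their replicate number, and bars show mean ± SD with n = 4 per sex. Dct is the gene whose female and male points do not overlap, while Kit and Ednrb have their highest male value in replicate 5.

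Tyrp1, on chromosome 4 (80834123 to 80851719, plus strand), encodes another enzyme of the tyrosinase family. It was near the limit of detection, with 106 reads over all hearts. Its normalized read counts were 22.3, 12.6, 11.7 and 35.3 in female replicates 1 to 4, from 23, 13, 11 and 29 reads. In male replicates 1, 3, 4 and 5 they were 15.6, 3.44, 1.70 and 8.45, from 17, 4, 2 and 7 reads. Male replicate 1 lay above female replicates 2 and 3, so the sexes overlapped. The log2 difference was 1.57 (SE 0.56, 95% interval 0.34 to 2.80, limma adjusted p = 0.204), in the same direction as that of Dct. The female heart with the highest Tyrp1 was replicate 4, while the female heart with the highest Dct was replicate 2.

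Pmel, on chromosome 10 (128704195 to 128720238, plus strand), had 42.7, 40.7, 46.8 and 54.8 normalized read counts in female replicates 1 to 4, against 41.2, 37.0, 24.7 and 39.8 in male replicates 1, 3, 4 and 5. Male replicate 1 lay just above female replicate 2, so the groups overlapped, and male replicate 4 was the lowest heart, as it was for Tyrp1. The log2 difference was 0.38 (95% interval -0.05 to 0.82, limma adjusted p = 0.374). It came to 0.22 without male replicate 4 and to 0.24 with total reads as a covariate. Pmel overlaps Cdk2 and Dgka on the opposite strand, so its 325 reads cannot be assigned to it with certainty.

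Mlana, on chromosome 19 (29697824 to 29708634, plus strand), had 270, 205, 176 and 283 normalized read counts in female replicates 1 to 4, against 230, 148, 268 and 224 in male replicates 1, 3, 4 and 5. High and low hearts occurred in both sexes, with male replicate 3 and female replicate 3 lowest. Female hearts averaged 233 ± 51.3 and male hearts 218 ± 50.4 (SD, n = 4 each). The log2 difference was 0.10 (95% interval -0.35 to 0.56, limma adjusted p = 0.856).

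The regulator Mitf, on chromosome 6 (97807052 to 98021349, plus strand), had 3541, 3683, 4346 and 3534 normalized read counts in female replicates 1 to 4, against 3576, 3499, 3534 and 3549 in male replicates 1, 3, 4 and 5. Female replicate 3 was above all other hearts, and the 4 males differed by less than their counting error: the chi-square over 3 degrees of freedom, divided by them, was 37.0 in females and 0.324 in males. The log2 difference was 0.09 (95% interval -0.04 to 0.22, limma adjusted p = 0.509) and came to 0.02 without female replicate 3. The gene Gm15531, which has no row, overlaps Mitf on the opposite strand. RefSeq gives Mitf 3 start windows, and counts per gene do not tell transcripts of the melanocyte start from the others.

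Of the receptors, Kit, on chromosome 5 (75574916 to 75656722, plus strand), had 401, 352, 341 and 419 normalized read counts in female replicates 1 to 4, against 403, 421, 390 and 579 in male replicates 1, 3, 4 and 5. Male replicate 5, the heart with the least Dct, had the most Kit, and the remaining males lay among or just above the females. The log2 difference of Kit was -0.23 (95% interval -0.50 to 0.04, limma adjusted p = 0.39). It was -0.10 without male replicate 5 and -0.38 with total reads as a covariate (limma adjusted p = 0.0823). Ednrb, on chromosome 14 (103814625 to 103844402, minus strand), had 1579, 1406, 1445 and 1808 in female replicates 1 to 4, against 1559, 1558, 1550 and 1738 in male replicates 1, 3, 4 and 5. Its log2 difference was -0.04 (95% interval -0.21 to 0.12, limma adjusted p = 0.833). Female replicate 4 and male replicate 5, the hearts with the most Ednrb in their sex, held the fewest reads. Within the sexes r of Kit with total reads was -0.83 (exact permutation p = 0.066, adjusted p = 0.231 over 7 genes, n = 8) and rho was -0.60 (exact permutation p = 0.189). For Ednrb r with total reads was -0.80 (exact permutation p = 0.0226, adjusted p = 0.158, n = 8) and rho was -0.60 (exact permutation p = 0.0903). Without female replicate 4 and male replicate 5, r with total reads was 0.39 for Kit and 0.16 for Ednrb, so both relations rested on them.

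Levels per length ordered the genes differently from their counts. They are RPKM values, from the recovered reads and the merged exon length. In female hearts Mitf averaged 9.48 ± 0.822, Ednrb 5.70 ± 0.747, Mlana 3.44 ± 0.805, Dct 0.879 ± 0.10, Kit 0.662 ± 0.0757, Pmel 0.315 ± 0.0457 and Tyrp1 0.114 ± 0.0626 (SD, n = 4). In male hearts the levels per length were 8.81 ± 0.148 for Mitf, 5.78 ± 0.238 for Ednrb, 3.17 ± 0.735 for Mlana, 0.774 ± 0.139 for Kit, 0.598 ± 0.0850 for Dct, 0.240 ± 0.0500 for Pmel and 0.0397 ± 0.0341 for Tyrp1 (SD, n = 4). Mlana was thus present at a higher level per length than Dct in every heart, 2.18 to 4.25 against 0.481 to 1.01. Over the 8 hearts the ranges of Dct and Kit overlapped, as did those of Pmel and Tyrp1, while the other neighbours in the order did not overlap.

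No relation of the 6 genes with Dct from heart to heart passed the test. Since Dct separates the sexes, each heart was compared with the mean of its own sex on the log2(value + 1) scale, over all 8 hearts. Pearson's r with Dct was -0.62 for Kit (exact permutation p = 0.17), -0.42 for Ednrb (exact permutation p = 0.344) and -0.32 for Mitf (exact permutation p = 0.467). It was -0.13 for Mlana, -0.11 for Pmel and 0.01 for Tyrp1 (exact permutation p = 0.785, 0.835 and 0.99, n = 8 hearts). Spearman's rho with Dct lay between -0.33 (Ednrb) and 0.19 (Tyrp1), with exact permutation p-values of 0.481 or more. After adjustment over the 6 relations the p-values of r were 0.934 to 0.99 and those of rho were 1, so 0 of 6 passed by either measure, and 0 had an unadjusted p under 0.05. Female replicate 2 had the most Dct in its sex and less Tyrp1, Pmel, Mlana, Kit and Ednrb than the female mean. Male replicate 5 had the least Dct in its sex and more of those 5 genes than the male mean.

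**Figure D2:**
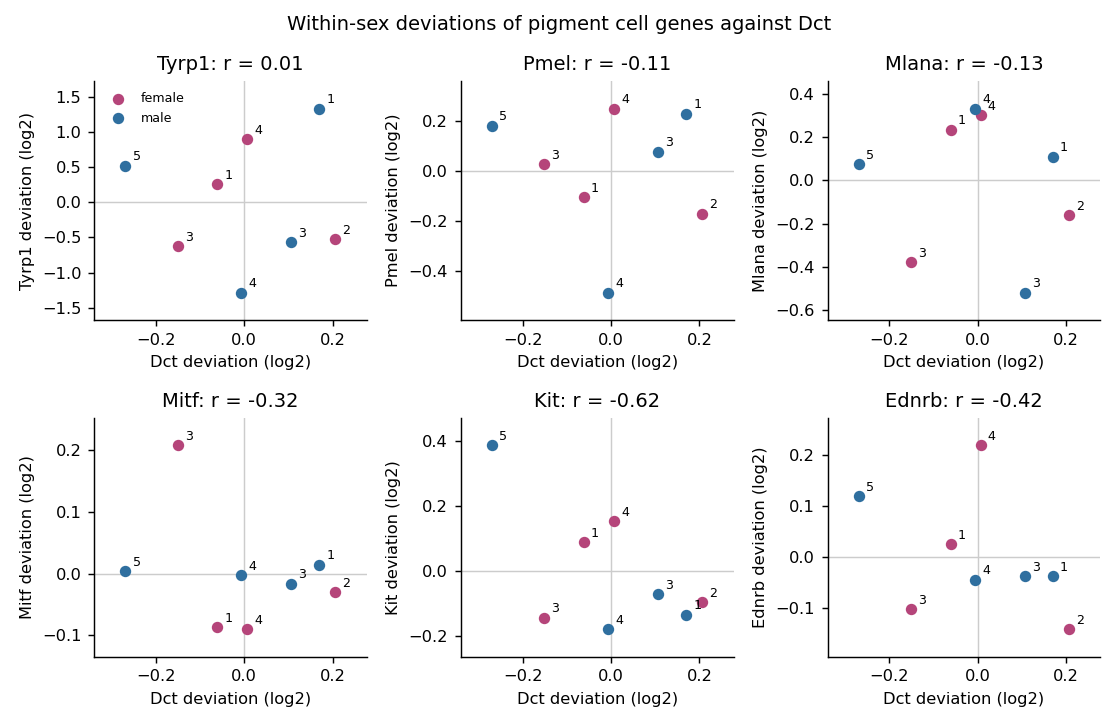
Deviation of each heart from the mean of its own sex on the log2(value + 1) scale, Dct on the horizontal axes and each of the 6 other genes on the vertical axes; points are hearts with their replicate number, coloured by sex. No panel shows the points on a rising line, and r runs from -0.62 (Kit) to 0.01 (Tyrp1).

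Most of the signs depended on single hearts. Without male replicate 5 and female replicate 2, the hearts farthest from the median Dct deviation, r over the remaining 6 hearts was 0.92 for Tyrp1 (exact permutation p = 0.0556), 0.83 for Pmel (exact permutation p = 0.111) and 0.74 for Kit (exact permutation p = 0.111). For Ednrb it was 0.67 and for Mlana 0.17, while Mitf stayed negative at -0.57 (exact permutation p = 0.0833, 0.75 and 0.333, n = 6). The sign turned for Kit, Pmel, Mlana and Ednrb and stayed for Tyrp1 and Mitf. With 6 hearts the smallest p is 0.0278, and 1 relation alone cannot go below 0.167 after adjustment over 6. Without female replicate 3, r of Mitf with Dct was 0.42, and without male replicate 3 that of Mlana was 0.10. The r of Tyrp1 was -0.13 when female replicate 3 was left out, -0.43 when it was male replicate 1 and -0.003 when it was male replicate 4.

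Among the other 15 pairs of these genes, 0 passed after adjustment, by r or by rho, and 2 had an unadjusted p of r under 0.05. Kit and Ednrb were one of them (r = 0.78, exact permutation p = 0.0139, adjusted p = 0.208; rho = 0.76, exact permutation p = 0.0347; n = 8). Without female replicate 4 and male replicate 5, r of that pair was 0.85 (exact permutation p = 0.222). Tyrp1 and Pmel were the other, at r = 0.81 (exact permutation p = 0.0295, adjusted p = 0.221; rho = 0.79, exact permutation p = 0.0382; n = 8). Without male replicates 1 and 4, r of Tyrp1 and Pmel was 0.68 (exact permutation p = 0.208). The spread of Pmel within a sex was near its counting error, with a chi-square per degree of freedom of 0.759 in females and 1.79 in males. Mlana and Pmel, the pair of melanosome proteins among the members, had r = -0.17 (exact permutation p = 0.7) and rho = -0.05 (exact permutation p = 0.955).

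**Figure D3:**
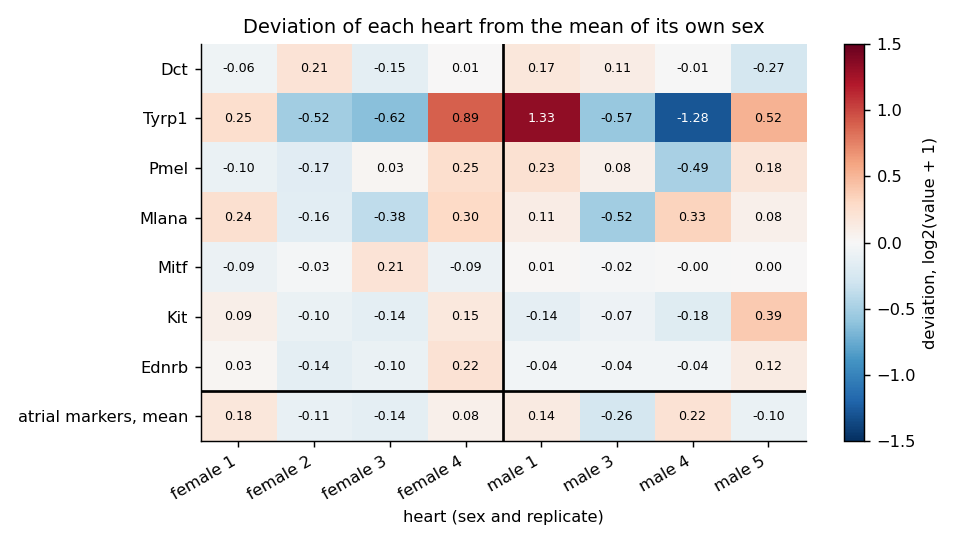
Deviation of each heart (columns) from the mean of its own sex for the 7 genes and for the mean of 9 atrial marker genes (rows), on the log2(value + 1) scale; red is above and blue below that mean. The Mlana row follows the atrial row, with the lowest value of both in male replicate 3, and the Dct row does not.

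Mlana ordered the hearts of each sex as Nppa did, a gene of atrial muscle. This relation was picked out of those of 7 genes after the values had been seen, so it is a description. Nppa encodes atrial natriuretic peptide and had 79706, 65187, 64925 and 82408 normalized read counts in female replicates 1 to 4, against 82209, 58512, 91468 and 73238 in male replicates 1, 3, 4 and 5. Both genes ordered the female hearts as replicates 4, 1, 2 and 3 from highest to lowest, and the male hearts as replicates 4, 1, 5 and 3. Within the sexes r of Mlana with Nppa was 0.96 (exact permutation p = 0.00174, the smallest possible) and rho was 1 (exact permutation p = 0.00347, n = 8). Adjusted over the 63 relations of 7 pigment genes with 9 atrial genes, these were 0.109 and 0.219, and 1 relation alone cannot go below 0.109. Without male replicates 3 and 4, the hearts farthest from the median Nppa deviation, r was 0.92 (exact permutation p = 0.0625), and without any single heart r stayed between 0.92 and 0.98. Bmp10, an atrial growth factor gene, had r = 0.85 with Mlana (exact permutation p = 0.00521, adjusted p = 0.164) and rho = 0.83 (exact permutation p = 0.0243, adjusted p = 0.492), and r = 0.83 without female replicates 3 and 4 (exact permutation p = 0.0833). The other 7 atrial genes had r between 0.36 (Tbx5) and 0.88 (Sln), with exact permutation p-values from 0.0191 to 0.408.

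With the mean of all 9 atrial genes, r of Mlana was 0.90 (exact permutation p = 0.00347) and rho 0.93 (exact permutation p = 0.0139). Over all 84 relations of 7 genes with 12 marker lists, the adjusted p was 0.292 for r and 0.583 for rho, and 0 of 84 passed, with 6 at an unadjusted p of r under 0.05; 1 relation alone cannot go below 0.146 here. Mlana also had r = 0.81 (exact permutation p = 0.0434, adjusted p = 0.583) and rho = 0.86 (exact permutation p = 0.00347, adjusted p = 0.292) with the mean of 4 skin genes, and r = 0.71 (exact permutation p = 0.0608) and rho = 0.74 (exact permutation p = 0.0694) with that of 6 endocardial genes. By r with the atrial mean, Mlana ranked 36 among all 12777 genes with a mean of at least 100, predicted ones included, as a description. Dct ranked 5553 in the same order, with r = 0.04 (exact permutation p = 0.948) and rho = -0.10 (exact permutation p = 0.84). Dct had r = 0.78 with the mean of 8 endothelial genes (exact permutation p = 0.0469, adjusted p = 0.583). Its rho there was 0.69 (exact permutation p = 0.109), and r was 0.32 without female replicate 3 and male replicate 5. Kit and Ednrb had r = -0.85 and -0.92 with the mean of 4 pulmonary vein and lung genes (exact permutation p = 0.0122 and adjusted p = 0.34 for both). Their rho there was -0.55 and -0.81 (exact permutation p = 0.21 and 0.0295). Without female replicate 4 and male replicate 5, r was -0.48 and -0.60 (exact permutation p = 0.361 and 0.194). Of this list, Sftpc and Scgb1a1 had only 9 and 1 reads in female replicate 4, and 3 and 7 in male replicate 5. Mitf had r = -0.84 with the mean of 6 fibroblast genes (exact permutation p = 0.0399, adjusted p = 0.583) and rho = -0.64 (exact permutation p = 0.0938). Without female replicate 3 and male replicate 5, that r was -0.49 (exact permutation p = 0.444). The summed atrial level ran from 195195 to 235167 in females and from 178994 to 254056 in males, so the sexes overlapped.

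**Figure D4:**
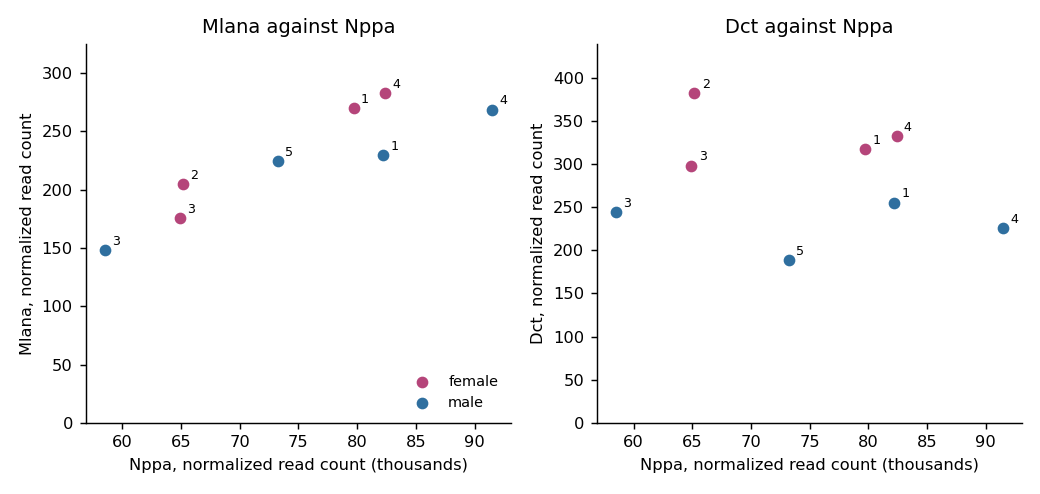
Normalized read counts of Mlana (left) and Dct (right) against those of Nppa divided by 1000, with hearts as points coloured by sex and marked with their replicate number. Mlana runs from 148 to 283 and is lowest in male replicate 3, where Nppa is lowest too, while the Dct points show no such line.

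No other gene of the wider pigment cell machinery passed the test between the sexes. Lists of pigment enzymes, melanosome proteins, melanocyte receptors, regulators, ligands and organelle biogenesis genes held 55 genes besides Dct, of which 45 had a row. Of these, 0 passed in limma, in edgeR and in DESeq2 (which gave 36 of them an adjusted p), with 10, 10 and 7 at an unadjusted p under 0.05. The limma count is 22.2% of the 45, beside 16% of all genes. There were 19 with a positive log2 difference and 26 with a negative one, and the median was -0.03, against 0.00 over all genes. No overlap between the sexes was seen for 4 genes or 8.9%, close to the 9.35% of all genes. These were Tfe3, a relative of Mitf (1241 ± 50.7 in females, 1332 ± 28 in males; limma adjusted p = 0.262), and Hps1, Bloc1s1 and Bloc1s4, which act in the making of lysosome-related organelles.

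Counts of ligands and further melanosome genes differed widely, from low in Trpm1 to high in Kitl. Kitl, the ligand of Kit, averaged 4387 ± 51.9 in female hearts and 4553 ± 238 in male hearts (limma adjusted p = 0.55), and Edn3, an endothelin that acts on Ednrb, averaged 60.5 ± 14.4 in female hearts and 72.3 ± 10.04 in male hearts (limma adjusted p = 0.52; SD, n = 4 each). Slc24a5, a cation exchanger of the melanosome, averaged 51.2 ± 8.18 in female hearts and 50.3 ± 4.51 in male hearts, and Trpm1, a cation channel gene of melanocytes and retina, averaged 27.5 ± 10.8 in female hearts and 38.5 ± 11.4 in male hearts (limma adjusted p = 0.973 and 0.47). Pax3, Mc1r, Gpr143, Oca2, Slc45a2, Tspan10 and Rab38 had no row and are not analysed here, nor are Edn2 and Asip.

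Sox10 is the neural crest factor that acts upstream of Mitf in melanocytes and is also made by Schwann cells. Its order was the reverse of that of Dct in male hearts, and only in part in female hearts. It had 185, 160, 178 and 168 normalized read counts in female replicates 1 to 4, against 152, 160, 172 and 181 in male replicates 1, 3, 4 and 5. Its lowest female heart, replicate 2, had the most Dct among females, and its highest male heart, replicate 5, had the least Dct among males. Its highest female heart was replicate 1, while the least Dct among females was in replicate 3. The SD of Sox10 was 6.4% of its mean in females and 7.74% in males, beside 7.66% from counting reads alone. Its order of hearts thus cannot be told apart from counting error. Within the sexes r was -0.90 (exact permutation p = 0.00868, adjusted p = 0.356 over 123 listed genes) and rho -0.90 (exact permutation p = 0.0139, adjusted p = 0.285), with r = -0.80 without male replicate 5 and female replicate 2 (exact permutation p = 0.139). Zeb2, another neural crest and melanocyte regulator, ran with Dct in its outermost hearts. It had 2818, 3093, 2561 and 2739 normalized read counts in female replicates 1 to 4, against 2900, 2651, 2667 and 2292 in male replicates 1, 3, 4 and 5. Its r with Dct was 0.95 (exact permutation p = 0.00694, adjusted p = 0.356) and its rho 0.86 (exact permutation p = 0.0191, adjusted p = 0.336), with r = 0.74 without the same 2 hearts (exact permutation p = 0.222). Edn3 had r = 0.78 with Dct (exact permutation p = 0.0312, adjusted p = 0.406) and rho = 0.93 (exact permutation p = 0.00694, adjusted p = 0.267), with r = 0.91 without those hearts (exact permutation p = 0.0556). Of the 45 genes on the pigment lists, 19 had a positive r with Dct and 26 a negative one, the median was -0.12, and 7 had an unadjusted p under 0.05. Besides Sox10, Zeb2 and Edn3, these included Edn1 (r = 0.82, exact permutation p = 0.0295). The rest were negative: Tfeb (r = -0.83), Snapin (r = -0.80) and Bloc1s1 (r = -0.74; exact permutation p = 0.0208, 0.033 and 0.0208). Without male replicate 5 and female replicate 2, r was 0.08 for Edn1, -0.76 for Tfeb, -0.69 for Snapin and -0.72 for Bloc1s1. The share of all genes at such a p was not computed. Of all 123 listed genes set against Dct, 0 passed after adjustment, where 1 relation alone cannot go below 0.214. The smallest p was that of Tek, an endothelial receptor gene, at r = 0.92 (exact permutation p = 0.00174, adjusted p = 0.214) and rho = 0.90 (exact permutation p = 0.00174, adjusted p = 0.214), with r = 0.98 without male replicate 5 and female replicate 2 (exact permutation p = 0.0278, the smallest possible). Tek had 4773, 5047, 4675 and 4804 in female replicates 1 to 4, against 4864, 4832, 4733 and 3987 in male replicates 1, 3, 4 and 5. The other endothelial markers had r with Dct from -0.64 (Flt1) to 0.82 (Cdh5).

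Among 11983 genes with a mean of at least 100, predicted genes and pseudogenes left out, the 10 whose within-sex deviations were most like those of Dct had r from 0.95 to 0.99 over 8 hearts. They were Mpp7, Aggf1, Slc18b1, Tbck, Elp4, Zfp943, Slc9a5, Aqp7, Synm and Vamp7, and the 3 least like it were Zdhhc4, Acad9 and Stx5a (r from -0.98 to -0.97). None of these 13 genes was on the pigment lists. Vamp7 was the gene of the 10 that passed the test between the sexes (log2 difference 0.48, limma adjusted p = 0.00175). With 8 hearts and this many genes, 90% of all r with Dct lay between -0.74 and 0.73, and the likeness is given as a description.

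Markers of cells that could carry these transcripts gave the following levels. Schwann and neural crest markers summed to 3210 to 3658 in females and 2819 to 3356 in males, with 0 of 10 passing in limma. At an unadjusted p under 0.05 there were 2 of them, or 20%, beside 16% of all genes. Mast cell markers, Kit among them, summed to 1962 to 2228 in females and 1938 to 2323 in males, with 0 of 7 passing and 0 at an unadjusted p under 0.05; Fcer1a and Ms4a2 had no row. Endothelial markers, Ednrb among them, summed to 68291 to 75032 in females and 68859 to 75389 in males, with 0 of 9 passing and 1 (11.1%) at an unadjusted p under 0.05. Skin markers were low, at 243 to 312 in females and 298 to 343 in males, and Krt5, Krt15 and Krt1 had no row. Of 9 macrophage markers, 3 passed and 6 did not, against 1.16% of all genes called. Csf1r, C1qa and C1qb fell in females (limma adjusted p = 0.0481, 0.0359 and 0.0493), and the sum of the 9 was 13784 to 16027 in females and 17117 to 20763 in males. Of 6 fibroblast markers, 1 passed: Lum, which encodes the matrix proteoglycan lumican, rose in females, with 5084 ± 213 in female hearts and 4137 ± 120.4 in male hearts (SD, n = 4 each; log2 difference 0.30, limma adjusted p = 0.00285). The part of any of these cells in the difference of Dct was not tested.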

How the data were processed

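Whole hearts were profiled by RNA sequencing. The deposited table gives 1 signal column per heart. From the values, these are gene counts which the authors scaled by a size factor of each heart: every value was a whole number of reads within 0.001 reads (100% of values). Read counts were recovered from these deposited values. It also holds the authors' deposited log2 fold changes and p-values, which were not used for results. The build was mm10, per the submitters' processing notes. Aligner, counter, strand setting and filter: not given in the sources used here. No gene had fewer than 81 reads over the 8 hearts, so rarer genes are not analysed here. No column was left unmapped to a heart.

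The test between the sexes was limma 3.58.1 (R 4.3.3; trend and robust options) on log2(value + 1), female minus male, for genes with a value of 1 in at least 4 hearts, a filter that took out 0 of 17911. The call was a p under 0.05 after Benjamini-Hochberg adjustment over all of them. This scale understates the change of low genes. Relations between genes used deviations from the mean of the own sex and two-sided exact permutation tests over the 576 arrangements of hearts within the sexes. The smallest p these allow is 0.00174. Positions and exon lengths came from GENCODE vM21, matched for 17869 identifiers. Alternatives were edgeR 4.0.16 and DESeq2 1.42.0 on the recovered reads, another pseudocount and filter, blocks, total reads as a covariate and leaving out hearts.

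Members and lists were chosen with earlier results of these data known. Named genes were the members, list genes past the test or on a list with a member, the 10 genes most like Dct and the 3 least like it, and its nearest measured neighbours. Tfe3, Hps1, Bloc1s1, Bloc1s4, Sox10, Zeb2, Tek, Scgb1a1, the ligands, Slc24a5, Trpm1 and the relation of Mlana to atrial genes were singled out after their values were seen. So were Tfeb, Snapin, Lef1 and Sftpc. Tested on simulated counts of 17911 genes, limma recovered 16% of genes changed 1.25-fold and 94% of those changed 1.5-fold, and 6.06% of its calls were false. The changes were placed only in genes with many reads, and every gene had the same spread beyond counting. Recovery was therefore not measured for genes as low as Tyrp1 and Pmel or as variable as Mlana. The 12 pairs of hearts within a sex differed by 8.34 to 18.8 times their sampling noise (chi-square per degree of freedom), so none appeared to be deposited more than once.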

Additional observations from a re-analysis of the deposited data

Results flagged for a closer look

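In 56 groups of 4 hearts (28 genes in each sex), 5 held a heart far from the others. Its gap to the nearest neighbour took up more of the range than Dixon's 95% value of 0.829 allows. Chance gives about 1 in 20 for groups picked without regard to their values. Scgb1a1, Tek and Hps1 were singled out after their values were seen, and all genes share the same hearts, so the 5 are a description. Male replicate 5 was the highest male heart for Kit (gap 0.839 of the range) and for Ednrb (0.957), and the lowest for Tek (0.851). That heart also had the least Dct and, with female replicate 4, the fewest reads. Male replicate 3 was the highest male heart for Scgb1a1 (0.978). Female replicate 3 was the lowest female heart for Hps1 (0.898).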

How the results depend on the processing

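The 6 genes other than Dct stayed uncalled under every alternative that gave them an adjusted p. No relation with Dct passed under any alternative for r, although with 6 hearts 1 relation alone could not have passed. DESeq2 gave Tyrp1 and Pmel no adjusted p, and the CPM filter removed them. The count of 208 called genes over the whole table was 690 with DESeq2 and 26 with the replicate block by library code, and ran from 77 to 516 without 1 heart, the lowest without female replicate 2 and the highest without male replicate 5. Block by replicate number gave 145 calls; same-numbered hearts (1, 3 and 4) had correlations of 0.217, -0.06 and -0.09. By the library code in the labels, where female replicate 4 has code 5 like male replicate 5, they were 0.217, -0.06 and 0.179 for codes 1, 3 and 5. Neither was taken to pair the hearts. Dct had a log2 difference of 0.38 with the block by replicate number and 0.47 with that by library code. Neither block changed a call among the other 6 genes. The difference of Ednrb turned to 0.044 with the block by replicate number, and ran from -0.12 to 0.004 without 1 heart. That of Mlana ran from -0.069 to 0.23 without 1 heart. Without 1 heart, r with Dct ran from -0.87 to 0.034 for Kit, from -0.44 to 0.42 for Mitf, from -0.44 to 0.10 for Mlana, from -0.36 to 0.19 for Pmel and from -0.43 to 0.30 for Tyrp1. For Ednrb it ran from -0.73 to -0.16 and so kept its sign. Without the 2 hearts farthest from the median Dct deviation, r was 0.74 for Kit, 0.83 for Pmel, 0.17 for Mlana and 0.67 for Ednrb. The cause of these changes was not tested. Depth limited Tyrp1 most, with as few as 2 reads in a heart.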
